A study of Pomatostomus ruficeps with 28 samples.

Results

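Lone low CpG sites, as the term is used here, are sites of low DNA methylation that lie among highly methylated sites. They were found in the blood of chestnut-crowned babbler (*Pomatostomus ruficeps*) nestlings, and the measured percentages themselves chose them. A site was selected on a mean methylation below 30% over the nestlings with a value, with at least 3 other measured sites on the same scaffold within 500 bp either side and with an average of at least 75% over the means of those neighbours. Of the 1564780 CpG sites in the deposited table, 213 (0.0136%) met the rule, on 184 of 22694 scaffolds. The low level of these sites and the high level of their surroundings are therefore descriptions, and no test was made on either.

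The chestnut-crowned babbler is a cooperatively breeding songbird of arid Australia, in which a breeding pair may be joined by helpers that feed the young. The data cover 28 wild nestlings, 19 raised by groups (parents with additional helpers, at least 3 carers) and 9 raised by pairs (parents alone), bled at 14 to 20 days of age (mean 15.9 days, SD 1.75, in groups and 15.7 days, SD 1.58, in pairs). Eggs had been taken from the nests late in incubation and kept in an incubator until hatching. The chicks were then returned to their own nest or placed in an unrelated one. Which nestling was which, and which shared a brood, was not used here. Blood is a mixture of cells, and in birds the nucleated red cells supply most of its DNA. A difference between nestlings in the make-up of their blood cannot be told apart from a difference within one kind of cell.

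In vertebrate genomes most cytosines that are followed by a guanine (CpG) carry a methyl group, and the unmethylated minority usually comes in runs, the CpG islands that often cover the start of genes. Neighbouring CpGs tend to share their state, because the enzymes that copy and remove the mark act along a stretch of DNA. A single low CpG inside methylated DNA is the less usual arrangement. Among the known settings of such a site are a bound protein that shields a few bases and a DNA variant that removes the CpG. In enzymatic methyl sequencing, an unmethylated cytosine is converted and read as thymine, as is a true thymine. On the strand of the cytosine, an unmethylated CpG and a CpG lost to a C-to-T variant therefore read alike. Since neither the bases on the opposite strand nor genotypes were analysed here, the 2 readings are not told apart at any of the sites below.

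The values are percentages of methylated reads per site and nestling. In 27 of the 28 nestlings the percentage could not be read as a share of the deposited coverage, but whole numbers of methylated and unmethylated reads were recovered from both columns for 100% of values. Summed over the kept sites, the read counts came to 5266843 to 19539803 in a nestling raised by a group and 8021028 to 17617440 in one raised by a pair. These sums are not library sizes, since a read over several sites counts several times and reads outside the kept sites do not count. In these 27 nestlings every value below 30% rested on at least 10 reads, whereas values of 75% or more could rest on as few as 5. Where unmethylated reads were the more numerous, values with 2, 3 or 4 methylated reads had at least 10 unmethylated ones. Low partial levels at few reads are therefore missing, while values of 0 at 10 reads are kept. The authors also removed sites that varied little, and the lowest SD of any site over nestlings was 7.41 percentage points (hereafter points), so sites that were low in every nestling to the same degree are missing from the table. Each nestling had a value at 98 to 208 of the 213 sites, with a median of 14 to 23 reads behind it.

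The 213 sites were spread widely below the limit. Their means ran from 2.31 to 29.97%, with a median of 18.3% and quartiles of 11.4 and 24.2%. The averages of their neighbours had a median of 80.4% (highest 93.7%), against a median of 86.9% for the means of all sites in the table. The window held a median of 15 other sites (3 to 90). Values were available from a median of 20 nestlings per site (18 to 28), which gave 4569 values in all. The table held 2430 sites with a mean below 30%. Of those that did not meet the rule, 716 lay in low surroundings (neighbours averaging below 30%), 1210 in intermediate surroundings (30 to under 75%) and 291 had fewer than 3 neighbours.

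Among the sites kept in the table, methylation rose again within a short distance of a lone low site. Sites removed by the authors' filters could lie in between, so the distances, steps and runs given here hold for the kept sites only. Sites 2 to 10 bp away averaged 71.0% (SD 19.2, n = 151), sites 11 to 25 bp away 75.8% (SD 12.6, n = 211), sites 51 to 100 bp away 79.2% (SD 11.9, n = 701) and sites 201 to 500 bp away 83.3% (SD 9.40, n = 1833). The rule fixed the average over the window, but not where in the window the lower sites lay, nor the level beyond it. Just outside the window, at 501 to 1000 bp, the mean was 81.9% (3.22% of sites below 50%), lower than in the last bin inside it. At 1001 to 2000 bp the mean was 84.5%, close to the 86.0% found around all sites with at least 3 neighbours. The low sites in low surroundings had a mean of 25.3% at 201 to 500 bp and still 69.9% at 1001 to 2000 bp, and those in intermediate surroundings rose from 38.4% at 2 to 10 bp to 58.5% at 201 to 500 bp. Around the lone low sites, 11.9% of the sites at 2 to 10 bp and 1.09% of those at 201 to 500 bp were below 50%.

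**Figure D1:**
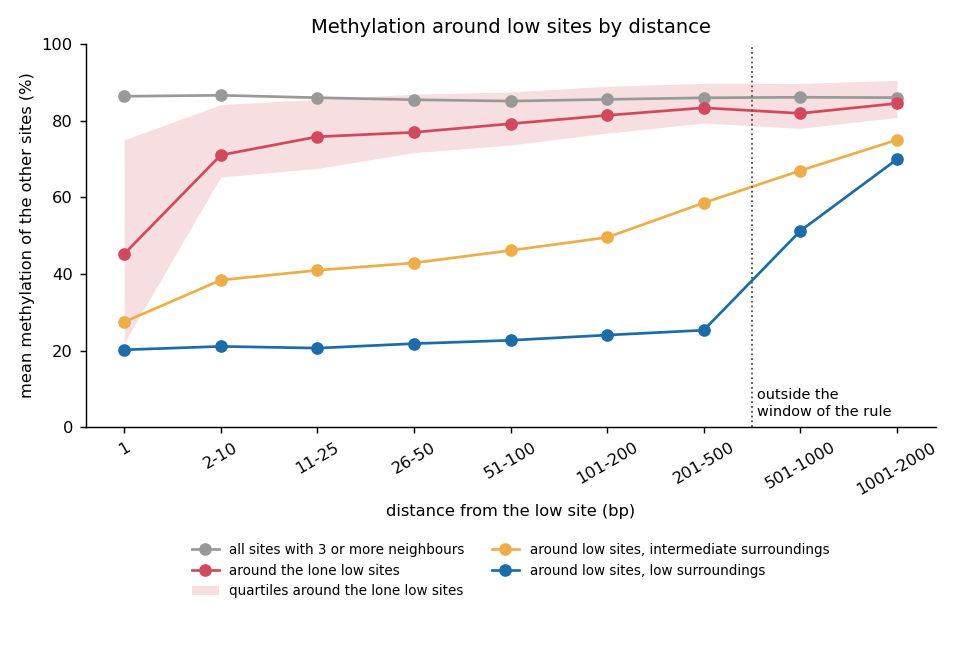
Mean methylation of neighbouring sites (%, vertical axis) by distance from the site in the centre (bp, horizontal axis), for lone low sites, for low sites in low and in intermediate surroundings and for all sites with at least 3 neighbours, with the quartiles around lone low sites as a shaded band. Around lone low sites the mean was 45.2% at 1 bp, 71.0% at 2 to 10 bp and 83.3% at 201 to 500 bp, while around all sites it stayed between 85.1 and 86.6%.

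The nearest measured site lay a median of 14 bp away (1 to 381 bp). Of the 213 sites, 174 had a neighbour on both sides within the window and 39 on 1 side only, and where both sides were covered the gap from one flanking site to the other had a median of 54 bp. The step from a lone low site up to its nearest neighbour was measured on each side. Its median was 56.9 points (quartiles 46.3 and 68.1, n = 387 flanks), with a range from -13.6 to 86.6 points. Of these nearest neighbours, 208 (53.7%) had a mean of 75% or more and 53 (13.7%) a mean below 50%. At the other low sites with 3 or more neighbours, the median step was 4.48 points and 79.5% of nearest neighbours were below 50% (n = 3579 flanks). These sites had neighbours averaging below 75% by the rule, so the contrast was fixed in part by the selection.

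Divided by the distance, the steps had a median steepness of 1.66 points per bp. The step itself changed less with distance than the steepness did. It had a median of 52.6 points for flanks 2 to 10 bp away (n = 86), 55.1 points at 11 to 50 bp (n = 140), 59.2 points at 51 to 100 bp (n = 50) and 67.5 points at 101 to 500 bp (n = 76). The steepness over the same distances fell from a median of 8.05 points per bp to 2.05, 0.884 and 0.305. The measured spacing of sites thus set how sharp an edge could appear, since a distant flank cannot show where between the sites the level changed.

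**Figure D2:**
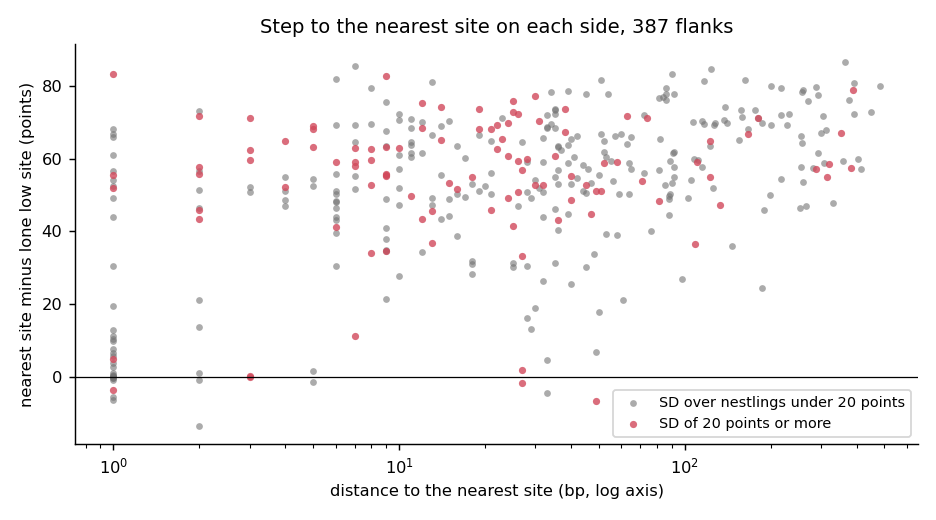
Step in mean methylation from a lone low site to its nearest measured neighbour (points, vertical axis) against their distance (bp, log scale, horizontal axis), 1 dot per flank, red where the SD of the lone low site over nestlings is 20 points or more and grey elsewhere. Steps at 1 bp range from -6.58 to 83.2 points with a median of 9.68, and from 2 bp on the medians lie between 52.6 and 67.5 points.

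The steepest changes were found between positions 1 bp apart. The cytosines of one CpG on the opposite strands lie 1 bp apart, and although both strands are said to have been collapsed in the processing, 20.1% of the gaps between successive sites in the table (310421) were of 1 bp. Without a genome sequence it was not checked which of these pairs belong to 1 CpG. A position 1 bp away was present for 35 of the 213 lone low sites (16.4%, against 38.7% of all sites). Of these partners, 14 were themselves below 30%, 9 were at 30 to under 60% and 12 at 60% or more. At the other low sites 19 of 924 partners were at 60% or more, a contrast that the rule on the neighbours' average fixed in part. Over all pairs 1 bp apart the median difference was 2.63 points, with 172 pairs (0.0554%) at least 30 points apart.

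At VYZT01000608.1 position 186620 the mean was 9.56%, while its partner 1 bp away had 92.8%, a step of 83.2 points and the largest of the 35. The partner's values ran from 70 to 100% and it was higher in 14 of the 14 nestlings with both values. The same held in 19 of 19 nestlings at VYZT01029124.1 position 28072 (21.5% against 89.6%), in 20 of 20 at VYZT01056270.1 position 576 (25.2% against 69.3%) and in 21 of 22 at VYZT01124731.1 position 872 (26.8% against 78.8%). These pairs were apart within single birds and not only in their means. The number of reads differed too. At the 12 sites with a partner of 60% or more, the lone low position had a median of 2.39 times the reads of its partner and 7 of the 12 had at least 2 times as many, whereas the ratio was 1.02 at the 9 sites with a partner of 30 to under 60% and 1 at the 14 with a partner below 30%. Over all pairs 1 bp apart, 0.308% had a ratio of 2 or more in either direction, but few of those pairs set a low site against a high one. For the 68 nearest sites 2 to 10 bp from a lone low site that were at 60% or more, the median ratio was 1.09. It was 2 or more at 5 of them (7.35%). Values at a high partner could also rest on fewer reads than low values, as described above. The part of the excess of reads at the 12 sites in the result was not tested.

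Most lone low sites stood alone among the sites kept in the table, from which low sites of little variation had been removed. Counting outwards until a measured site reached 50%, 164 of the 213 were the only site of their run, 39 were in runs of 2 sites, 9 in runs of 3 and 1 in a run of 8 sites. With positions 1 bp apart merged into 1 site, 182 sites were alone. A further lone low site within 500 bp was absent for 174 of the 213 sites, and the others formed 18 stretches of 2 or 3.

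The stretch on scaffold VYZT01053683.1 had 3 lone low sites within 31 bp, at positions 28146, 28149 and 28176, with means of 11.4, 11.6 and 13.5%. The nearest sites outside it had 80.5% at 5 bp on one side and 88.8% at 12 bp on the other. At position 28146, values in groups (n = 13) ran from 0 to 50% with a median of 0, and in pairs (n = 8) from 0 to 100%, also with a median of 0. The classes overlapped, and 17 of the 21 nestlings were at 0. The 4 others had 43.5% and 50% in groups and 46.7% and 100% in pairs. The value of 100% rested on 10 of 10 reads (95% Wilson interval 72.2 to 100%), and the 50% on 9 of 18 (29.0 to 71.0%). The same 4 nestlings carried the high values at all 3 positions: 43.5, 47.4, 53.3 and 100% at 28149, and 45.5, 45, 50 and 90.9% at 28176. The correlation over nestlings was 0.998 between the first pair of positions (n = 21), 0.989 between the outer ones (n = 18) and 0.991 between the last pair (n = 18). Positions this close can lie on the same reads, so the 3 are not independent of each other.

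In the other stretches of 3 the sites were less alike. On VYZT01035283.1, positions 121453, 121454 and 121645 had means of 19.5, 13.9 and 13.6% in all 28 nestlings, with correlations of 0.233, 0.283 and 0.552. On VYZT01037755.1, positions 53195, 53196 and 53198 had means of 16.2, 16.5 and 15.4%. Over nestlings, 53196 and 53198 varied together (0.823, n = 26), whereas 53195 had correlations of 0.199 with 53196 and -0.04 with 53198 (n = 23). Among the 24 pairs of lone low sites within 500 bp, the trio on VYZT01053683.1 gave the only 3 pairs in which both sites had an SD of at least 20 points.

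Variation among nestlings was wide at some lone low sites and near the filter at others. The SD over nestlings had a median of 12.4 points, with quartiles of 9.45 and 20.9 and a range of 7.43 to 39.1. The medians were 9.97 points for low sites in low surroundings, 10.9 for those in intermediate surroundings and 10.9 for all sites. An SD of 20 points or more was found at 55 lone low sites (25.8%), against 6 sites (0.838%) in low and 47 (3.88%) in intermediate surroundings, 2.19% of the neighbours and 1.48% of all sites. The share of lone low sites at 20 or more was 9.62% among sites with values in at least 24 nestlings, 45.8% over values with at least 10 reads and 48.5% where the neighbours averaged at least 85%. An SD of 30 or more was found at 19 lone low sites, and at 0 and 1 of the others. No test was made, because the percentages that chose the sites also bound their SD.

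The difference was present at matched means, but the sets were not matched on depth or on the number of nestlings with a value. Among sites with a mean of 10 to under 20%, 20 of 74 lone low sites (27%) had an SD of at least 20 points, against 0.599% in low and 3.06% in intermediate surroundings. At 20 to under 30% it was 32 of 92 (34.8%), against 1.57 and 4.71%. Below 10% it was 3 of 47 (6.38%), against 0 of the others. Compared with the SD that the number of reads alone would give, 67 lone low sites (31.5%) varied at least 2 times as much, against 5.17 and 4.71% of the other low sites and 0.795% of the neighbours.

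**Figure D3:**
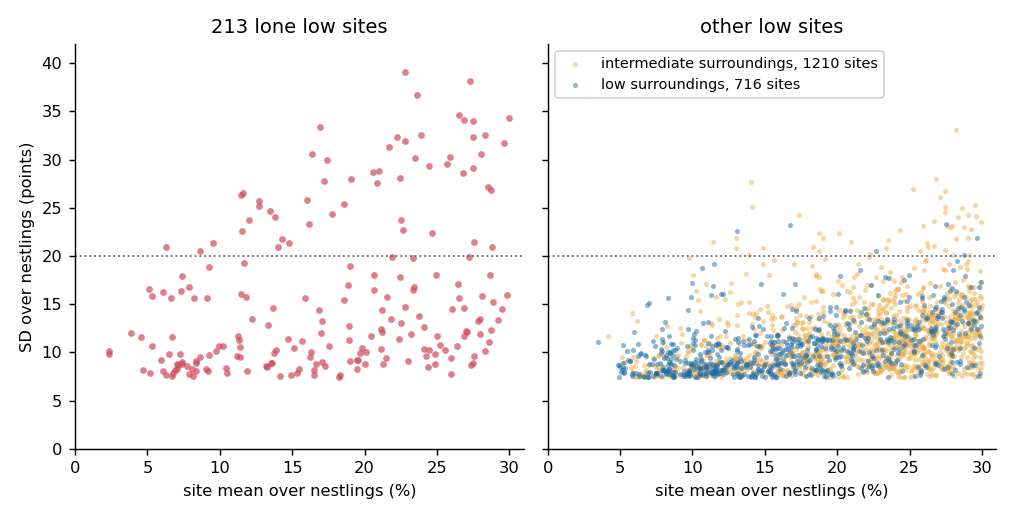
SD over nestlings (points, vertical axis) against mean methylation (%, horizontal axis) of each lone low site and of the low sites in low and in intermediate surroundings. Of the lone low sites, 55 lie at an SD of 20 points or more and 19 at 30 or more, where the other low sites have 53 and 1.

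The values behind these SDs were unevenly spread. Of the 4569 values at lone low sites, 28.3% were at 0, 12.4% above 0 and under 10%, 47.4% at 10 to under 40%, 8.73% at 40 to 60% and 1.55% (71 values) at 75% or more. The share at 0 was 8.98% with a deposited coverage of at least 20 and 13.9% at sites with values in at least 24 nestlings. At low sites in low surroundings, 12% of values were at 0 and 0.0414% at 75% or more. The 55 sites with an SD of at least 20 points (1075 values) had 55.2% of their values at 0, 12.3% at 10 to under 40%, 16% at 40 to 60% and 6.51% at 75% or more. At the 158 sites with a lower SD, 20% of values were at 0, 6.5% at 40 to 60% and 0.0286% at 75% or more. With means held below 30%, the split by SD largely set this contrast, which is a description only. Low partial levels at few reads were missing from the values, as described above. The part of this in the small share at 10 to under 40% at the 55 sites, and in their SD, was not tested.

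Each of the 55 sites of high SD had a nestling at 0, and 39 of them also had a nestling at 75% or more. The split by SD largely fixed this too. At 36 of the 213 sites, nestlings at 0, at 40 to 60% and at 75% or more occurred together. At the other end, every nestling was below 50% at 100 sites. The median nestling was at 0 at 57 sites, and no nestling was at 0 at 44. Sites of high SD had fewer reads (median 13, against 17) and neighbours of higher methylation (median average 83.1% against 79.7%), and 47 of the 55 were alone in their run. Over the 213 sites, the correlation of the SD with the neighbours' average was 0.35 and with the median number of reads -0.31.

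The lone low site furthest below its surroundings was VYZT01029815.1 position 108856, with a mean of 2.31% and neighbours at an average of 84.5% over 32 sites, a difference of 82.2 points. Values in groups (n = 12) ran from 0 to 41.7% with a median of 0, and all 6 values in pairs were 0. A single bird of the 18 was above 0, nestling 79687 with 5 of 12 reads methylated (95% Wilson interval 19.3 to 68%). The mean and SD of this site thus rested on 1 bird. It was the only bird with read counts as deposited, and its values had at least 10 reads, against 5 in the others. The 17 values of 0 rested on 10 to 23 reads, for which a count of 0 allows a level of 13 to 30%. The flanking sites had 87.8% at 7 bp and 72.8% at 10 bp. Next in size were VYZT01054248.1 position 81531 (5.29%, 81.4 points lower), VYZT01060151.1 position 30041 (5.34%, 81.4 points), VYZT01033046.1 position 128595 (2.34%, 81.1 points) and VYZT01031395.1 position 88979 (6.05%, 81.0 points), with 16 of 18, 13 of 20, 18 of 19 and 15 of 18 nestlings at 0. All 5 thus owed their mean to a minority of birds, with the rest at 0.

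Among sites with a value in at least 24 nestlings, VYZT01015144.1 position 6817 had the highest SD (30.6 points, mean 28.1%, n = 27). Values in groups (n = 18) ran from 0 to 100% with a median of 8.71%, and in pairs (n = 9) from 0 to 88.9% with a median of 35.7%. The classes overlapped over nearly the whole scale. Of the 27 nestlings, 9 were at 0, 4 at 40 to 60% and 3 at 75% or more, including 15 of 15 reads methylated in one bird (95% Wilson interval 79.6 to 100%) and 0 of 36 in another (0 to 9.64%). The next were VYZT01124731.1 position 872 (28.6 points, n = 24, 0 to 89.5%) and VYZT01125570.1 position 1137 (23.7 points, n = 28, 0 to 90.9%). At these 3 sites values spread over nearly the whole scale, with 11 of 24 nestlings at 0 at the second and 9 of 28 at the third.

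The lowest SD in the same set was at VYZT01062146.1 position 919 (7.43 points, mean 18.2%, n = 27), just above the lowest SD in the table. Values ran from 6.67 to 36.4% in groups (n = 19, median 17.1%) and from 7.69 to 30.4% in pairs (n = 8, median 18%). All birds had some methylated reads and the classes overlapped. The flanking sites had 74.2% at 21 bp and 88.3% at 107 bp. VYZT01007760.1 position 79359 (7.56 points, mean 14.2%) and VYZT01016491.1 position 28074 (7.63 points, mean 14.9%) were alike, the last with neighbours at an average of 87.3% over 6 sites.

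**Figure D4:**
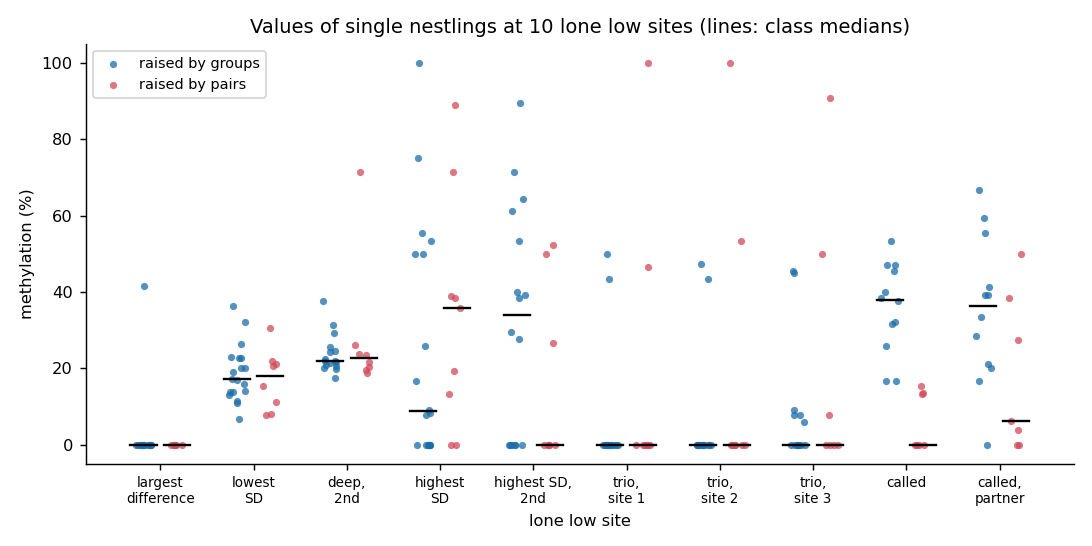
Methylation (%, vertical axis) of each nestling at 10 of the sites named in the text, with nestlings raised by groups in blue, those raised by pairs in red and the median of each class as a line. At VYZT01015144.1 position 6817 the values spread from 0 to 100%, at VYZT01062146.1 position 919 from 6.67 to 36.4%, and at VYZT01051419.1 position 3591 the classes do not overlap.

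The most covered sites had a partial level in every nestling. VYZT01048341.1 position 2494 had the highest median coverage (86 as deposited, 73 reads), with a mean of 20% and an SD of 8.80 points (n = 26). Values in groups (n = 17) ran from 9.09 to 25% with a median of 17.2%, and in pairs (n = 9) from 13.9 to 55.6% with a median of 20%. The classes overlapped, and no bird was at 0. VYZT01056270.1 position 576 (66.5 reads, mean 25.2%, SD 10.8) and VYZT01009757.1 position 1557 (55 reads, mean 25.5%, SD 10.2) also had no nestling at 0.

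Deposited coverage and scaffold length moved with the kind of site. A median coverage above the 95th percentile of all sites (18) was found at 66 of the 213 lone low sites (31%), against 4.25% of all sites and 53.1% of the low sites in low surroundings. Among the lone low sites it was 38% of those with an SD under 20 points and 10.9% of those with a higher SD. Scaffolds whose last site lay before position 10000 held 59 of the 213 (27.7%), against 7.79% of all sites, with 31.6% and 16.4% in the sets of lower and higher SD. Such scaffolds and such coverage can mark sequence present in several copies that the assembly holds as 1. The part of either in the result was not tested. Coverage was also not an even measure across these sets. In nearly all nestlings it weighted methylated reads more heavily, so the limit of 18 asked for more reads at a low site. In the same nestlings a value below 30% needed at least 10 reads, whereas one of 75% or more could rest on 5. The median reads of a nestling over its kept sites were 7 to 13. The part of this filter in the shares above the limit was not tested.

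The deposited table gives the natal group of each nestling as a code. There were 19 codes, 12 of them with 1 nestling, which left 12 pairs of nestlings that shared a code and 366 that did not. At the 55 lone low sites of high SD, 2 nestlings sharing a code differed by a mean of 21.8 points (12.6 to 34.9), and 2 nestlings of different codes by 28.6 points (8.31 to 56.4), a ratio of 0.764. Of the 12 pairs, 11 were below the median of the pairs of different codes. At the 158 sites of lower SD the means were 12 and 12.2 points (ratio 0.979, 7 of 12), at the neighbours 12.7 and 12.8 (0.994, 5 of 12), and at low sites in low surroundings 11.5 and 11.6 (0.995, 8 of 12). The ratio was also lower at the 70 other low sites with an SD of 20 points or more (0.839, 10 of 12). These include low sites with fewer than 3 neighbours, which the comparison of SDs above left out. Nestlings were thus more alike within a natal group at the sites of high SD, lone low or not, by a measure in which the pairs share nestlings and for which no test was made. Leaving out 1 code at a time, the ratio at the 55 sites lay between 0.730 and 0.788. More of the 12 pairs came from code OFS than from any other, and without it the ratio was 0.730. Only 1 code was found in both carer classes, so nearly all pairs sharing a code also shared a class. The part of counting error in the ratios near 1 was not tested.

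**Figure D5:**
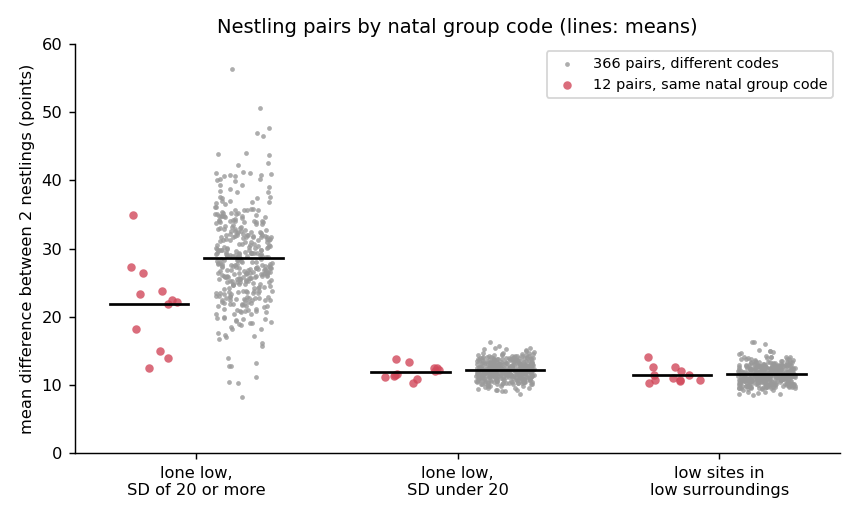
Mean difference in methylation between 2 nestlings (points, vertical axis) for the 12 pairs sharing a natal group code and the 366 pairs of different codes, at lone low sites with an SD of 20 points or more, at those with a lower SD and at low sites in low surroundings, with the mean of each set of pairs as a line. In the first set 11 of the 12 sharing pairs lie below the median of the others (28.3 points), and the ratios of the means are 0.764, 0.979 and 0.995.

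The level of a lone low site was in the median only weakly correlated with that of its surroundings. Within a site, the correlation over nestlings between its deviation from its mean and the mean deviation of its neighbours had a median of 0.122 over the 213 sites (-0.54 to 0.74), and of 0.148 at the sites of high SD. At 53 sites of high SD, with nestlings both at 40% or more and at 10% or less, the neighbours were higher by a median of 1.12 points in the birds with the higher value, in the same direction at 36 of the 53. The difference of 30 points or more at the site was fixed by this choice of birds, and only the value around it was free. Counting error in the reads also lowers such correlations, and its part was not tested.

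The study compared nestlings raised by groups with those raised by pairs. Averaged over its lone low sites, a nestling deviated from the site means by 0.35 ± 1.18 points in groups (SD, n = 19, -1.41 to 2.31) and by -0.62 ± 1.46 points in pairs (SD, n = 9, -3.12 to 1.13). The ranges overlapped and the difference of the means was smaller than the SD of either class. The lowest nestling, 79676, was raised by a pair, and without it the mean of pairs was -0.31 points. No test was made over the members. Values of 0 made up 21.4 to 33.9% of a nestling's values at these sites.

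For single sites, each of the 1564780 sites was tested for carer class, with age as a covariate, in a beta regression (a model for shares between 0 and 1), and a site was called where the Benjamini-Hochberg adjusted p was at most 0.01 and the predicted means of the classes were at least 25 points apart. This called 1 of the 213 lone low sites, where the share called over all sites was 0.00153% (24 sites). The study's own model, which also held brood and cross-fostering status, called many more sites at the same limits. The 24 are thus the count of the present fit only. The selection pooled both classes and did not use their labels, but it was not free of the contrast. A site with a mean above 30% in groups or in pairs was a member only through lower values in the other class. This held at the sites of smallest carer p. The means in groups and pairs were 36.0 and 6.05% at VYZT01051419.1 position 3591 and 34.6 and 18.7% at VYZT01125570.1 position 1047. At VYZT01053586.1 position 1890 they were 15.8 and 31.7%. An unadjusted p under 0.05 was found at 15 of the 213 (7.04%), 9 higher and 6 lower in groups. The background over all sites was 8.48%, with 6.2% higher and 2.29% lower in groups, so the share at the lone low sites was near the background and says nothing particular about them. Which of the shares was larger depended on the fit, since limma on logit values also gave 15 of the 213 but 4.92% of all sites. Without nestling 79676 the count was 14, of which 4 were higher and 10 lower in groups, while the shares over all sites stayed at 6.17 and 2.31%. The direction of the majority at the lone low sites thus rested on 1 bird.

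The called site was VYZT01051419.1 position 3591. Values in groups (n = 12) ran from 16.7 to 53.3% with a median of 38%, and in pairs (n = 7) from 0 to 15.4% with a median of 0. The classes did not overlap. The highest value, 53.3% in groups, was 8 of 15 reads (95% Wilson interval 30.1 to 75.2%), and the best covered bird, raised by a pair, had 6 of 45 reads (6.26 to 26.2%). The predicted means were 37.3% in groups and 7.58% in pairs, a difference of 29.8 points (beta regression, p = 1.22e-09, adjusted p = 2.42e-05). With any one nestling left out the difference was 28.3 to 31.9 points, with unadjusted p-values from 1.02e-11 to 4.21e-08. The call was lost with a likelihood ratio test of the same model (29.8 points, adjusted p = 0.0449) and with limma on logit values (30.9 points, adjusted p = 0.917), both of which called 0 of the 1564780 sites, and with 1 nestling per natal group code (26.6 points, adjusted p = 0.0119).

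Its partner 1 bp away, position 3592, was a lone low site as well, with a mean of 28.8% and a correlation with 3591 of 0.811 over 15 nestlings. Values there ran from 0 to 66.7% in groups (n = 12, median 36.3%) and from 0 to 50% in pairs (n = 7, median 6.25%). The classes overlapped, and the predicted means of 35.1 and 19.1% did not pass the limit (p = 0.0452, adjusted p = 0.572, beta regression). The site on the far side of 3591, at 6 bp, had 75.3%, and the one beyond 3592, at 4 bp, had 80.8%. With 87 sites, this window was the second most densely measured of all 213. The most dense was that of VYZT01125570.1 position 1047 (90 sites, mean 28.7%), which also had the second smallest carer p. Its values in groups (n = 12) ran from 16.7 to 43.8% with a median of 38.5%, and in pairs (n = 7) from 0 to 31.3% with a median of 17.9%, a predicted difference of 16.3 points that was not called (adjusted p = 0.114, beta regression). The third was VYZT01053586.1 position 1890, with predicted means of 16.1% in groups and 33.7% in pairs (adjusted p = 0.254, beta regression).

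Sites lay close to both limits of the rule. The site just inside the limit of 30% was VYZT01125640.1 position 587 (29.97%) and the one just outside VYZT01062744.1 position 49354 (30.05%). At the limit of 75% on the neighbours, VYZT01026401.1 position 157935 was just inside (75.003%) and VYZT01046988.1 position 12076 just outside (74.96%).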

How the data were processed

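Enzymatic methyl sequencing was applied to blood of 28 nestlings. The authors trimmed reads with HTStream, mapped them with Bismark (version not given in the sources used here) to the babbler genome, removed sites of low or extreme coverage, kept sites present in 60% of both classes and removed sites of low variation. The deposited percentages are methylated reads over all reads, with no scaling across birds. Read counts as deposited were present for 1 nestling (79687), where methylated plus unmethylated reads equalled the coverage. The deposited coverage of the other nestlings equalled 2 times the methylated reads (where that was 10 or more) plus the unmethylated reads (where 10 or more). This reading of the column, found after seeing the data, resolved 100% of their values, against 18.9% of the values below 100% with coverage shuffled. The intervals for single nestlings (95%, Wilson) and the limits for a count of 0 (3 counts) cover counting error only. Whether reads carried molecular identifiers is not stated in the sources used here, and copies of the same molecule were not told apart here. A further 6 columns of values were not used.

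The members, lists and comparisons were chosen with earlier results of these data known. Named sites were those first or among the first 3 or 5 by difference to the neighbours, sites in the window, SD (at least 24 nestlings), carer p, coverage, closeness of neighbours and members per stretch, and those nearest to the limits. The sites with the largest steps between positions 1 bp apart were named after their values were seen. Replicates are different birds, some of which shared a natal group.

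Carer class was tested per site by beta regression (logit link, maximum likelihood, two-sided Wald test) with age, shares y of n nestlings transformed to (y(n-1)+0.5)/n to avoid 0 and 1, and Benjamini-Hochberg adjustment over all sites. The median inflation of the test statistic over all sites was 1.17. Brood and cross-fostering status, which the study's model held, were not used. The fit was tested on simulated data, and at the 213 lone low sites it differed from glmmTMB 1.1.9 by at most 3.04e-06 in the carer term. Alternatives covered the limits of the rule, depth, scaffold length, merged positions, left-out nestlings, the natal group code and other tests. Software: R 4.3.3 (limma 3.58.1) and Python 3.11.15 (pandas 2.3.3, numba 0.67.0, numpy 2.4.6, scipy 1.17.1, matplotlib 3.10.9). Positions are those of the authors' scaffolds, of the chestnut-crowned babbler reference assembly that the study's methods name. Sequences and gene locations were not analysed here.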

Additional observations from a re-analysis of the deposited data

Results flagged for a closer look

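In the 9 nestlings raised by pairs, or those of them with a value, 29 values were tested for 1 bird standing apart from the rest by Dixon's criterion, and 5 were set apart. Chance sets apart about 5% of groups of normally distributed values. Many of these values were bounded percentages with birds at 0, at sites named for extreme values. The count of 5 therefore cannot be read against that share. The share of values of 75% or more at lone low sites was 4.71% in nestling 61667 (9 values), with 0.581 to 1.55% in the other pairs and up to 3.87% in groups. The same bird was at 100% at VYZT01053683.1 position 28146, where the others raised by pairs were at 0 to 46.7%. Nestling 79561 had 44.4% at VYZT01033046.1 position 128595, where every other bird was at 0. At 2 of the most covered sites the bird that stood apart had few reads: nestling 62618 had 55.6% from 9 reads at VYZT01048341.1 position 2494 (others 13.9 to 29.6%), and nestling 79563 had 71.4% from 7 reads at VYZT01056270.1 position 576 (others 18.8 to 26.2%).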

How the results depend on the processing

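The number of lone low sites was 121 with the limit on the own mean at 20%, 33 with neighbours at 85% or more and 52 with sites in at least 24 nestlings, and lay between 154 and 262 under the other 11 alternatives. The median step was 64.1 points with the first of these limits, 66.3 with the second, 54.2 over flanks within 100 bp and 67.5 over flanks further away. The make-up of the values moved with these settings, of which the deposited coverage is not an even limit on reads. Values of 0 were 36.6% (own mean below 20%), 13.9% (24 nestlings), 8.98% (deposited coverage of at least 20), 33.8% (at least 10 reads) and 34.1% (long scaffolds). Values of 40 to 60% were 4.45, 6.61, 5.24 and 11.7% under the first 4 of these settings, and values of 75% or more 0.45, 0.288 and 2.92% under the second to the fourth. The share of sites with an SD of 20 points or more was 48.5% with neighbours at 85% or more, 9.62% with 24 nestlings and 45.8% with at least 10 reads. The cause of these shifts was not tested.

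For carer class, 0 lone low sites were called with limma (natal group code as a block or not), the likelihood ratio test, 1 nestling per natal group code and coverage of at least 20. Limma, the likelihood ratio test and coverage of at least 20 called 0 of all sites they tested, and 1 nestling per code 190. At an unadjusted p under 0.05, limma gave 15 lone low sites with or without the block (4.92% of all sites without it, 4.9% with it), the likelihood ratio test 13 (7.19%), 1 nestling per code 13 of 210 (10.5%) and coverage of at least 20 gave 7 of 54 (10.9%), where position 3591 of VYZT01051419.1 was not tested. That site stayed called under the other alternatives run. With a random intercept per natal group its unadjusted p was 1.22e-09 (beta regression, Wald test) and its predicted means 37.3 and 7.58%, as without it. The intercept, over 13 natal codes, thus left the fit unchanged, and this gives no separate support for the call. No paired analysis was made, since the classes were made up of different birds and only 1 natal group code was found in both.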
